A study of Mus musculus with 28 samples.

Results

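The genes described here are those of fatty acid oxidation and the peroxisome, found by name: 35 of the 3147 rows of the RNA table carry a name that begins with Acad, Acaa, Acox, Acot, Acsl, Ech, Hadh, Cpt1, Cpt2, Eci, Decr, Etfa, Etfb, Etfdh, Hsd17b or Pex and a number, or is Acat1 or Cat. Rows were picked by name and not by level. The set, its roles and the tests were chosen with earlier results of these data known. A further table of ribosome footprints held 44 such rows of 6250, and 33 rows were in both. The cells were dendritic cells grown from the bone marrow of female C57BL/6J mice of 6 to 8 weeks with GM-CSF at 20 ng/ml, a culture that also yields macrophage-like cells. On day 9 they received lipopolysaccharide (LPS) at 100 ng/ml, the bacterial cell wall component sensed by Tlr4, or a mock treatment, which the labels define as no stimulation. RNA was sequenced at 0 h and, in each arm, at 1, 2, 4, 6, 9 and 12 h, with 2 libraries in each of the 13 groups, and footprints came from 2 libraries of unstimulated cells. The study also exchanged the labelled growth medium at time 0 in both arms, to follow proteins, which were not analysed here.

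Fatty acid oxidation begins when an acyl-CoA synthetase joins a fatty acid to coenzyme A. The carnitine shuttle carries the acyl group into the mitochondrion, where a dehydrogenase, a hydratase, a hydroxyacyl-CoA dehydrogenase and a thiolase shorten it in turns, and the electron transfer flavoprotein passes the electrons of the first step to the respiratory chain. Peroxisomes shorten very long and branched acids with oxidases that make hydrogen peroxide, which catalase destroys. Dendritic cells and macrophages are known to shift towards glycolysis after LPS, and fatty acid oxidation is part of the metabolism of the resting cell.

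By role, the 35 rows comprised 3 of fatty acid activation, 2 of the carnitine shuttle, 7 acyl-CoA dehydrogenases, 7 of the later steps of the mitochondrial cycle, 2 auxiliary enzymes for unsaturated acids, 3 of the electron transfer flavoprotein, 3 of peroxisomal oxidation, 6 acyl-CoA thioesterases and 2 other members of the Hsd17b family. The peroxisome was thinly covered. Of 17 peroxins, the proteins that build peroxisomes, 0 were among the 35 rows and 4 were in the footprint table, so the peroxisomal side of the set rests on Cat, Hsd17b4 and Acox3 and on the thioesterase Acot8. All 35 rows passed the filter on low values, and none was listed at 0 in any library, with levels from 1.30 to 6843 TPM.

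TPM is a length-normalized level with a fixed total per library, so the sequencing depth behind each value is unknown, and how precise a value is can be read only from its companion library. Whether those companions were separate cultures or animals is not stated in the labels. The p-values therefore measure the spread between libraries alone, and this spread may be technical. Correlations of log2 levels between the libraries of a group ran from 0.930 to 0.983. Replicate 2 was lower than replicate 1 for 19 of the 35 members and higher for 3, against 36% and 26.9% of all rows. As a check of the LPS labels, the response genes Il1b, Rsad2 and Cd40 were higher by 6.26, 9.37 and 8.66 on the log2 scale at 6 h. Of the markers listed for dendritic cells, 5 of 12 were in the RNA table (Cd74, H2-Aa, H2-Ab1, Itgax and Csf2ra). They summed to 9349 to 18356 TPM in mock and 11956 to 21508 TPM in LPS libraries of 6, 9 and 12 h. Between the means of all unstimulated and of late LPS libraries, Itgax went from 827 to 674 and Csf2ra from 586 to 470 TPM. Cd74 went from 6766 to 8709, H2-Aa from 3327 to 3857 and H2-Ab1 from 3098 to 3516 TPM. Zbtb46, Ccr7, Cd80, Cd86, H2-Eb1 and Csf2rb had footprint rows alone, and Flt3 had neither. Markers of macrophages (5 of 8 listed) summed to 668 to 1290 TPM in late mock and 709 to 1655 TPM in late LPS libraries. That sum too hides members of both directions. From the mean of all unstimulated libraries to that of late LPS, Mrc1 went from 324 to 60.2, Csf1r from 244 to 91.9 and Cd68 from 272 to 161 TPM, and Cd14 from 207 to 622 and Fcgr1 from 57.9 to 278 TPM. Markers of granulocytes and their precursors (7 of 12) summed to 2492 to 7193 in mock and 1165 to 3043 TPM in LPS libraries. Most of that sum is S100a8 (means of 2132 and 585 TPM) and S100a9 (2263 and 726 TPM), while Lcn2 went from 158 to 498 TPM. In all, 0 of the T cell, B cell, erythroid or mast cell markers were in either table. A missing RNA row does not show that a gene was silent. H2-Eb1, Csf2rb and Mmp8 had no RNA row and held 1823, 291 and 159 TPM in footprints. In such bulk samples, fewer cells of a type and less RNA per cell cannot be told apart.

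The promoters of the members on which the results turn are shown here so that the level changes below can be set beside their DNA. RefSeq, on the build GRCm38.p6, gave 32 promoters for 29 of the 35 rows, and the 250 bases before each start were read, in the direction of the gene. Capitals mark the CCAAT box (CCAAT, or ATTGG on the other strand). Acsl1, with the largest late rise, has promoters at chr8:46470787-46471036 and chr8:46490716-46490965, on the plus strand. Hadh, with the largest late fall, has its promoter at chr3:131272102-131272351, on the minus strand. Etfb and Etfa encode the subunits of the electron transfer flavoprotein and parted in level, with promoters at chr7:43443822-43444071 on the plus strand and chr9:55512244-55512493 on the minus strand. Hadhb and Hadha encode the subunits of the trifunctional protein and start 273 bases apart on opposite strands of chromosome 5, so the Hadhb window, chr5:30155003-30155252 on the plus strand, lies between the starts of both.
Acsl1, upstream start: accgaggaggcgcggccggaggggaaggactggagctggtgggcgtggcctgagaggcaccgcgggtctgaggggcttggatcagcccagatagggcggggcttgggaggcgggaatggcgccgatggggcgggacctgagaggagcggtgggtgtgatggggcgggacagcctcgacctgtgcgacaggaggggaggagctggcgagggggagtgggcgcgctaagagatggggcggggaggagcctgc
Acsl1, downstream start: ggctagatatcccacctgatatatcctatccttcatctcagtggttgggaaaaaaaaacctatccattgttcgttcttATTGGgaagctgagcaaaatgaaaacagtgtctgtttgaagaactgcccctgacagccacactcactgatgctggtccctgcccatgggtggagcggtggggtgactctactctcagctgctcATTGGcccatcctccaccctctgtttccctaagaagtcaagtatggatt
Hadh: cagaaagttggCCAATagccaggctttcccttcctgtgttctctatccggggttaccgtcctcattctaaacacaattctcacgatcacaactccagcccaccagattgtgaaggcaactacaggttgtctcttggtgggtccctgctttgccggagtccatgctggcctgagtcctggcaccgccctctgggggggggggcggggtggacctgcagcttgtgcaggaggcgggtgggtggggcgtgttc
Etfb: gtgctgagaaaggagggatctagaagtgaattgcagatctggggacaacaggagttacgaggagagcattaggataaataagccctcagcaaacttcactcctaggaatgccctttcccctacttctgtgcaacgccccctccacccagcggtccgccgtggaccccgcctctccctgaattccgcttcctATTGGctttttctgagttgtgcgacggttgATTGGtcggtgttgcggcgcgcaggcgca
Etfa: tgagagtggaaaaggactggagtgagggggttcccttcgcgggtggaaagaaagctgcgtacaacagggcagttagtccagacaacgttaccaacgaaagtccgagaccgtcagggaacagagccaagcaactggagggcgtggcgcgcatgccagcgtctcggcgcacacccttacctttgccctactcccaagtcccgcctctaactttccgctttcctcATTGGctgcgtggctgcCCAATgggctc
Hadhb: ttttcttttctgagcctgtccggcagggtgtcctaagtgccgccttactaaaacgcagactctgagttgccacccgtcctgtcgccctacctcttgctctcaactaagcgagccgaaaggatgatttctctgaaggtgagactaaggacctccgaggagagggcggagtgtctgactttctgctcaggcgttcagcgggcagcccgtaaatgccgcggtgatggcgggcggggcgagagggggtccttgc

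On both strands, the CCAAT box was in 16 of the 32 member promoters (50%) and in 33.8% of all 32851 promoters of the table. The E-box CACGTG was in 1 (Acot11) against 6.02%, and the AP-1 letters TGACTCA in 1 (Acadsb) against 4.46%. The hexamer AGGTCA, the repeat unit read by nuclear receptors such as PPAR and RXR, which are known for inducing this pathway, was in 5 (Acadm, Acadvl, Cat, Cpt1a and Echs1) and in 14% of all. These are matches of letters in short windows and no measure of binding.

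LPS and mock cells were compared time by time to see which of these transcripts respond and when. From 6 to 12 h, 4 of 7 acyl-CoA dehydrogenases fell, and 2 did after rescaling. Of the later steps of the mitochondrial cycle, 6 of 7 members fell, and 5 did after rescaling. Acadsb and Acad8 in the former group, and Acat1 and Hsd17b10 in the latter, are described below as enzymes of amino acid breakdown. Of all rows, 47.7% fell, and 25.9% did after rescaling. Acsl1, at the entrance of the pathway, rose 14.4-fold. Hadh, Hsd17b10, Acat1, Acaa2, Acot2 and Etfb were 2.96-fold to 4.33-fold lower on average, and Ech1, Acadm, Acot13, Acads and Acadvl 2.05-fold to 2.41-fold lower (folds are on the scale of TPM plus 1). Besides Acsl1, rises were seen in Hsd17b11, Acadsb, Acadl and Acsl4. Over the mean of 6, 9 and 12 h, called the late effect below, 5 of the 35 rows rose and 20 fell (limma, adjusted p under 0.05 over all 3147 rows). Of all rows, 15.5% rose and 47.7% fell, so falls were common in the whole table and not only among the members. The median late log2 fold change was -0.63 for the members and -0.43 for all rows.

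The fall of the whole table depends on the scaling. After median-ratio rescaling, which centres each library on its typical row, the median of all rows was -0.03 and that of the members -0.23, and 7 members rose and 13 fell, against 26.2% and 25.9% of all rows. All 5 rises and 11 of the 20 falls kept their call under every alternative tried. Those 11 were Hadh, Hsd17b10, Acat1, Acaa2, Etfb, Ech1, Acadm, Acot13, Acads, Echs1 and Acox3. The granulocyte markers, summed above, reached lower levels in the LPS libraries of the same times, with overlapping ranges, and the macrophage markers went both ways. The part of either in these falls was not tested. The libraries of LPS and mock did not overlap over these times for 3 members above mock and 12 below, against 10.3% and 30.2% of all rows.

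**Figure D1:**
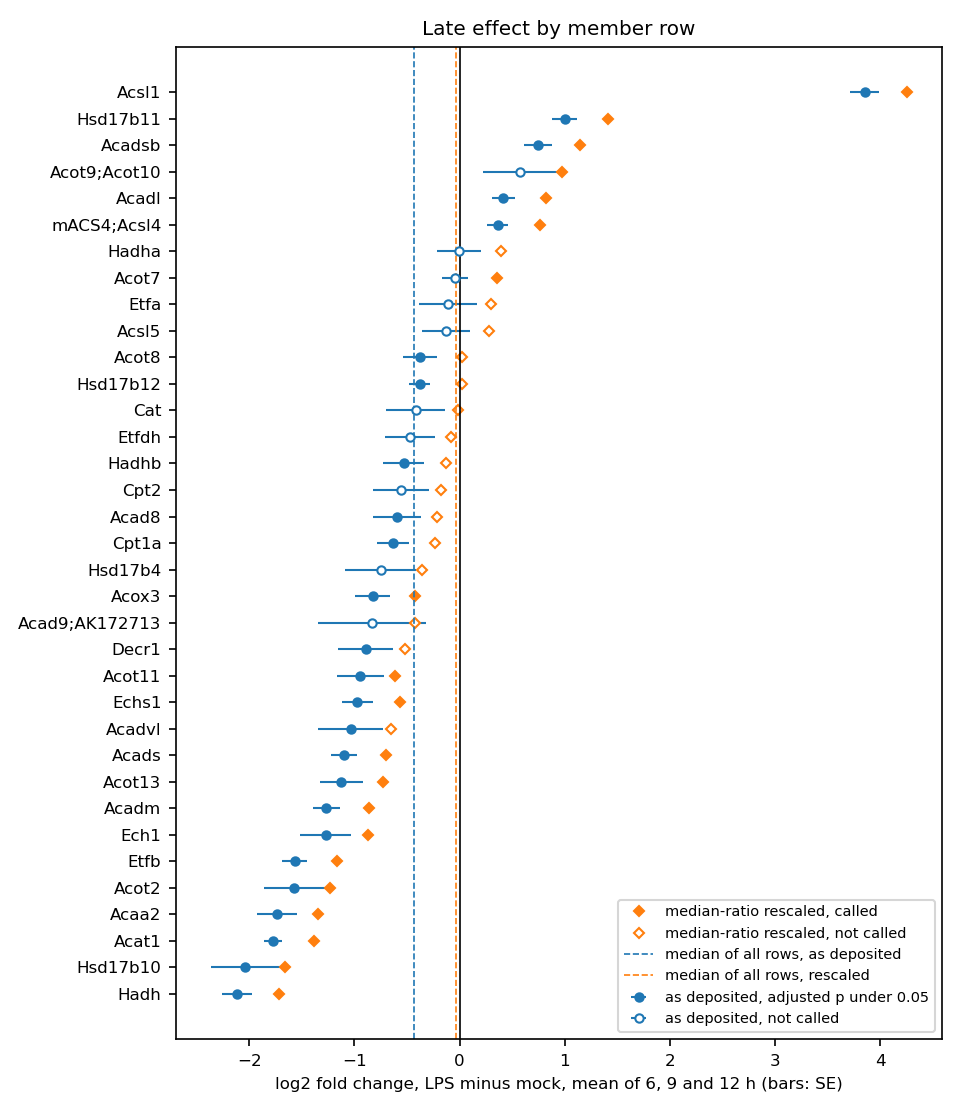
Late effect of LPS, the mean log2 fold change over 6, 9 and 12 h (x axis), for each of the 35 rows (y axis), with bars for SE; circles are the deposited TPM and diamonds the rescaled values, filled where called, and dashed lines are the medians of all rows, -0.43 and -0.03. Acsl1 stands apart at 3.85, and Hadh is lowest at -2.11.

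Among the enzymes of fatty acid activation, Acsl1, a long-chain acyl-CoA synthetase induced by many inflammatory signals, had the largest late change. It stood at 44.7 and 44.4 TPM at 0 h and between 36.4 and 58.5 TPM in all 12 mock libraries. With LPS, the 1 h libraries held 154 and 157 TPM, those of 2 h 367 and 396, those of 4 h 359 and 344, those of 6 h 563 and 465, those of 9 h 969.7 and 641, and those of 12 h 982 and 702. Every LPS library was above every mock library. The late log2 fold change was 3.85 ± 0.14 (SE; adjusted p = 6.72e-13), against 2.31 ± 0.17 for the mean of 1 and 2 h, the early effect. The row of Acsl4, which prefers arachidonic acid, was at 93.7, 114 and 138 TPM (lowest, median and highest of the 6 late LPS libraries) and at 81.7, 89.1 and 97.9 TPM in mock. It rose by 0.36 ± 0.10 (adjusted p = 0.00404), and the groups overlapped. Acsl5, a synthetase of mitochondria and endoplasmic reticulum, did not pass the test (-0.13 ± 0.23), with 56.1, 85.2 and 98.6 TPM in LPS and 62.9, 90.3 and 116 TPM in mock libraries.

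Of the 2 members of the carnitine shuttle, 1 fell late, and 0 did after rescaling or quantile normalization. Cpt1a, the enzyme of the outer mitochondrial membrane that controls the entry of long acyl groups, was at 24.9, 36.0 and 43.5 TPM in late LPS and 46.9, 51.3 and 58.9 TPM in late mock libraries, without overlap. It fell by 0.63 ± 0.15 (adjusted p = 0.00166), where the late median was -0.63 for the members and -0.43 for all rows. The call ended after rescaling (-0.23, adjusted p = 0.179). Cpt2, its partner on the inner membrane, was at 10.6, 14.1 and 20.7 TPM against 17.4, 22.8 and 27.0 TPM, a late difference that missed the threshold (-0.56 ± 0.27, adjusted p = 0.0773) except with the replicate block (adjusted p = 0.00682). The early effect was called in both, at -0.68 ± 0.19 for Cpt1a and -1.10 ± 0.33 for Cpt2. Both early calls ended without LPS replicate 2 of 1 h (-0.55 and -0.69, adjusted p = 0.0894 and 0.157). Cpt2 stood at 8.99 and 7.92 TPM in LPS and 24.4 and 22.8 TPM in mock libraries of 2 h.

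Acyl-CoA dehydrogenases open each turn of the cycle and differ in the chain length they take. The group split in direction: 4 of 7 fell and 2 rose, where 47.7% and 15.5% of all rows did. It includes Acadsb and Acad8, of amino acid breakdown, and the merged row of Acad9. Its counts are therefore not those of fatty acid enzymes alone. After rescaling, and under quantile normalization, 2 fell and 2 rose. Acadm, for medium chains, was at 33.5, 38.3 and 54.2 TPM in late LPS and at 72.1, 105 and 124 TPM in late mock libraries. Acads, for short chains, was at 21.6, 30.0 and 36.1 against 51.1, 66.2 and 74.4 TPM. Neither overlapped between the arms, and they fell by 1.26 ± 0.13 and 1.10 ± 0.12 (adjusted p = 2.65e-07 and 9.52e-07). The fall of Acadm was largest at 4 h, where the LPS libraries held 28.5 and 28.7 TPM and the mock libraries 82.3 and 113 TPM (log2 fold change -1.72). Acadvl, for very long chains, was at 8.96, 14.8 and 18.05 against 11.5, 32.4 and 43.9 TPM, with overlap. It fell by 1.03 ± 0.31, a call that ended after rescaling (adjusted p = 0.0795).

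Acadl, for long chains, went the other way, at 147, 158 and 195 TPM in late LPS against 112, 124 and 147 TPM in late mock libraries (0.42 ± 0.11, adjusted p = 0.00339), although the lowest LPS library lay just under the highest mock library. Acadsb, which serves the breakdown of isoleucine, was at 46.0, 61.2 and 66.8 against 30.9, 35.00 and 36.6 TPM, with every LPS library above every mock library. It rose by 0.75 ± 0.14 (adjusted p = 1.43e-04), whereas its early value was -0.14. Acad8, the corresponding enzyme of valine breakdown, was at 6.59, 10.2 and 15.4 against 13.04, 15.6 and 20.1 TPM and fell by 0.59 ± 0.23. That call ended after rescaling (adjusted p = 0.44) and on leaving out any of 6 single libraries (adjusted p from 0.0603 to 0.108), and its value turned to 0.12 under quantile normalization.

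The row Acad9;AK172713 behaved unlike the others. It joins Acad9, a dehydrogenase that also helps to assemble respiratory complex I, with a further transcript name, and the values cannot be divided between them. LPS libraries of 1 h held 6843 and 1502 TPM against 379 and 279.8 TPM in mock, and the mock libraries of 4 h held 3077 and 254 TPM, so single libraries stood far above their partners. Etfdh, which passes electrons from the flavoprotein to ubiquinone, was high in the same libraries, at 108 and 56.5 TPM in LPS of 1 h and 64.9 and 25.4 TPM in mock of 4 h. At 1 h the log2 fold changes were 3.30 ± 0.89 for the row of Acad9 and 1.53 ± 0.42 for Etfdh (adjusted p = 0.0491 and 0.0498). Without LPS replicate 1 of 1 h they were 2.20 and 1.07, neither called (adjusted p = 0.175 and 0.167), and either mock library left out also ended both calls.

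Within the later steps of the mitochondrial cycle 6 of 7 members fell, with a median of -1.74, and 5 of them fell after rescaling as well. Of all rows, 47.7% fell, with a median of -0.43, and 25.9% fell after rescaling. The group includes Acat1 and Hsd17b10, described below as enzymes of isoleucine breakdown, so its count and median are not those of fatty acid enzymes alone. Hadh, the hydroxyacyl-CoA dehydrogenase for short and medium chains, was at 14.9, 21.3 and 32.7 TPM in late LPS and 82.1, 91.7 and 114 TPM in late mock libraries. Its LPS libraries of 1 h held 89.0 and 85.3 TPM, those of 2 h 59.7 and 82.4, those of 4 h 46.1 and 52.8, those of 6 h 24.4 and 32.7, those of 9 h 15.4 and 27.0, and those of 12 h 14.9 and 18.2. At all 6 times they lay below both mock libraries of the same time, and the late fall was 2.11 ± 0.14 (adjusted p = 1.42e-09). Acat1, the thiolase of ketone bodies and isoleucine, was at 11.6, 13.01 and 16.0 against 44.8, 49.2 and 53.2 TPM and fell by 1.77 ± 0.09 (adjusted p = 3.70e-11). Acaa2, the thiolase of the fatty acid cycle, was at 16.6, 24.1 and 31.1 against 60.5, 83.7 and 95.7 TPM and fell by 1.74 ± 0.19 (adjusted p = 7.11e-07). The arms overlapped for neither thiolase.

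Hsd17b10, a dehydrogenase of isoleucine breakdown that is also a subunit of mitochondrial RNase P, was at 3.47, 15.7 and 31.7 TPM in late LPS and 30.4, 61.4 and 66.9 TPM in late mock libraries. Its fall of 2.04 ± 0.33 (adjusted p = 4.56e-05) came mostly at 9 h (18.4 and 6.53 against 63.9 and 50.1 TPM) and 12 h (18.4 and 3.47 against 60.8 and 62.0 TPM), and a mock library of 6 h overlapped with LPS. Without LPS replicate 2 the call at 9 h was lost (-1.57, adjusted p = 0.0749). Echs1, the short-chain enoyl-CoA hydratase, was at 50.9, 90.8 and 132 against 135, 175 and 219 TPM and fell by 0.97 ± 0.15 (adjusted p = 2.83e-05).

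The trifunctional protein carries the last steps for long chains on its alpha subunit Hadha and beta subunit Hadhb. Hadhb was at 70.1, 78.9 and 102 TPM in late LPS and 104, 120.1 and 136 TPM in late mock libraries. It fell by 0.53 ± 0.19 (adjusted p = 0.0249), but this call ended after rescaling (adjusted p = 0.595) and without any of 6 single libraries (adjusted p from 0.0533 to 0.0783). Hadha was at 28.9, 42.7 and 63.4 against 40.0, 41.6 and 52.2 TPM, a difference of -0.01 ± 0.21.

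**Figure D2:**
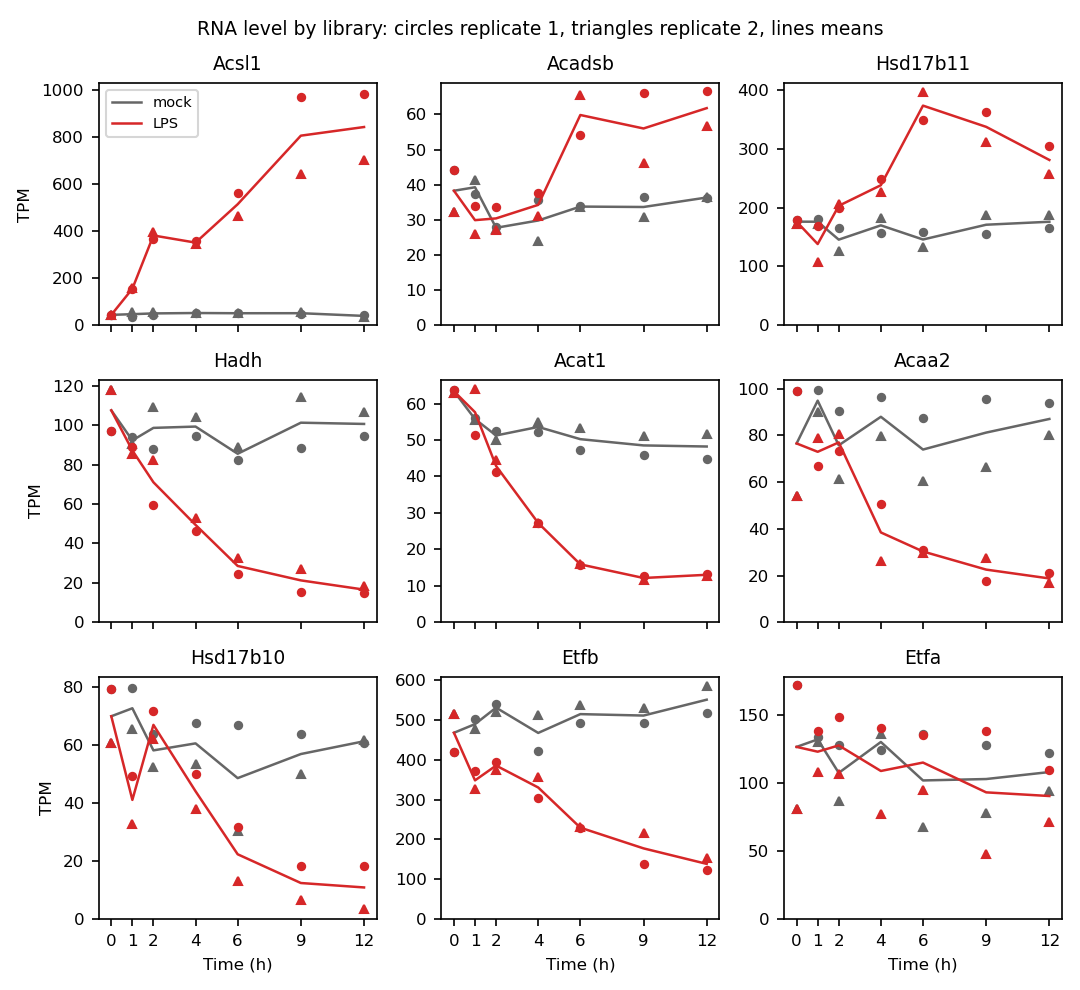
RNA level in TPM (y axes, from 0) against time in h (x axes) for 9 members, with mock in grey and LPS in red; circles are replicate 1, triangles replicate 2 and lines the means of the libraries, and the 0 h libraries belong to both arms. Acsl1, Acadsb and Hsd17b11 end above mock, Hadh, Acat1, Acaa2, Hsd17b10 and Etfb end below it, and Etfa overlaps at 12 h.

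The auxiliary enzymes for unsaturated acids, Ech1 (an isomerase) and Decr1 (a reductase), both fell. Ech1 was at 35.8, 53.7 and 62.8 TPM in late LPS and 92.3, 128 and 153 TPM in late mock libraries, a fall of 1.27 ± 0.24 (adjusted p = 2.16e-04). Decr1 was at 6.25, 9.83 and 13.4 against 16.8, 18.5 and 22.0 TPM, and its fall of 0.89 ± 0.26 was not called after rescaling (-0.52, adjusted p = 0.101). Neither gene overlapped between the arms.

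Of the electron transfer flavoprotein, the beta subunit fell and the alpha subunit did not pass the test. Etfb was at 124, 185 and 232 TPM in late LPS and 492, 523 and 586 TPM in late mock libraries, without overlap, and fell by 1.57 ± 0.12 (adjusted p = 5.00e-09). Etfa was at 48.1, 102 and 138 against 67.8, 108 and 136 TPM, a difference of -0.11 ± 0.28. Etfdh, at 20.4, 21.3 and 29.1 against 25.2, 30.7 and 41.1 TPM, had a late difference of -0.47 ± 0.24 that passed only with the replicate block (adjusted p = 0.0261) and with the compared groups alone (adjusted p = 0.0317).

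Because partners of a complex or a shuttle share each library, their ratio does not depend on how that library was scaled. This measure was chosen after the levels had been seen. Etfb over Etfa was 1.01, 1.92 and 4.50 (lowest, median and highest) in the 6 late LPS libraries and 3.63, 5.24 and 7.92 in the 6 late mock libraries, with overlap, and 2.45 and 6.37 at 0 h. The log2 ratio was lower by -1.46 in LPS (exact permutation of the arms within times, two-sided, p = 0.0185, adjusted over 3 ratios 0.0278). It was lower in LPS in 6 of 6 pairs of libraries with the same number. Hadhb over Hadha was 1.32, 1.96 and 2.43 against 2.59, 2.61 and 3.41, without overlap, but was 2.10 and 1.92 at 0 h, inside the LPS range. Its log2 difference was -0.53, with an exact permutation p of 0.00926, the smallest that the 216 arrangements allow (adjusted 0.0278), and it too was lower in 6 of 6 pairs. Exact sign flips of those pairs, two-sided, gave p = 0.0312 for either ratio, the smallest that 64 flips allow (adjusted 0.0469). For Cpt2 over Cpt1a, at 0.298, 0.459 and 0.550 against 0.368, 0.414 and 0.543, the difference of 0.05 did not pass (exact permutation p = 0.759). These ratios compare unequal changes and do not show that either partner stayed the same.

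**Figure D3:**
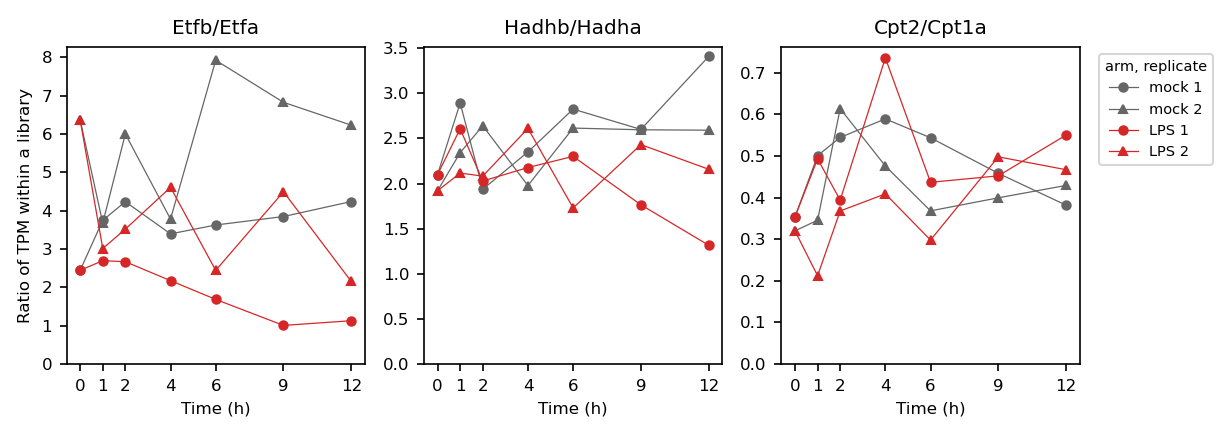
Ratio of TPM within a library (y axes, from 0) against time in h (x axes) for Etfb over Etfa, Hadhb over Hadha and Cpt2 over Cpt1a, with mock in grey and LPS in red, a line for each replicate number. At 6, 9 and 12 h the first ratio is 1.01 to 4.50 in LPS and 3.63 to 7.92 in mock, and the Cpt ratio overlaps.

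Of the 3 members of peroxisomal oxidation, 1 fell. Acox3, an acyl-CoA oxidase for branched acids, was at 27.1, 37.8 and 70.1 TPM in late LPS and 54.1, 74.8 and 81.3 TPM in late mock libraries and fell by 0.83 ± 0.17 (adjusted p = 4.22e-04). Catalase (Cat), the most abundant of the group, was at 30.2, 65.5 and 141 against 45.3, 92.0 and 111 TPM, and its late difference of -0.42 ± 0.28 did not pass. It was called at 4 h alone (with the replicate block also at 9 h, adjusted p = 0.0291), with 60.2 and 36.0 TPM in LPS and 106 and 132 TPM in mock libraries (-1.33). That call ended after rescaling (-0.88, adjusted p = 0.193) and without LPS replicate 2 or either mock library of 4 h (adjusted p from 0.0876 to 0.258). Catalase stood at 141 and 87.2 against 88.1 and 102 TPM at 12 h. Hsd17b4, the bifunctional enzyme of peroxisomal oxidation, was at 14.0, 24.7 and 33.3 against 16.0, 48.2 and 63.2 TPM, a difference of -0.75 ± 0.33 that missed the threshold (adjusted p = 0.0593) except with the replicate block (adjusted p = 0.0017).

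The acyl-CoA thioesterases release free fatty acids from coenzyme A in several compartments. Of the 6 members, 4 fell (3 after rescaling and 1 under quantile normalization). Of all rows, 47.7% fell (25.9% after rescaling, and 977 of 3147 under quantile normalization). Acot2, the mitochondrial enzyme, was at 1.68, 3.65 and 8.85 TPM in late LPS and 10.3, 12.0 and 20.9 TPM in late mock libraries, without overlap. It fell by 1.57 ± 0.29 (adjusted p = 1.74e-04), although under quantile normalization the adjusted p was 0.0651, and reads of near-identical Acot1 may be mixed with it. Acot13 was at 17.5, 36.3 and 48.9 against 40.8, 72.9 and 107 TPM and fell by 1.13 ± 0.20. Acot11 was at 1.30, 3.84 and 7.13 against 6.86, 7.51 and 8.59 TPM and fell by 0.94 ± 0.22, a call that quantile normalization ended (adjusted p = 0.734). Acot8, the peroxisomal thioesterase, was at 25.3, 33.7 and 43.1 against 37.0, 42.1 and 50.5 TPM. Its late fall of 0.38 ± 0.16 was at the threshold (adjusted p = 0.0496) and ended without any of 10 single libraries (adjusted p from 0.0602 to 0.129). It also ended after rescaling and under quantile normalization, where the value turned to 0.02 and 0.04. At 2 h it held 27.7 and 20.0 TPM in LPS and 43.8 and 57.2 TPM in mock libraries (-1.05), and that call ended without replicate 2 of either arm (adjusted p = 0.165 and 0.147).

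Acot7, the abundant cytosolic enzyme, was at 156, 167 and 195 against 156, 174 and 199.7 TPM. Its difference of -0.05 ± 0.12 did not pass, but after rescaling it was called higher (0.36, adjusted p = 0.0189). The row Acot9;Acot10, a parent gene and its near-identical copy whose reads cannot be separated here, was at 26.5, 61.1 and 108 against 22.1, 36.9 and 61.3 TPM. Its difference of 0.58 ± 0.36 did not pass as deposited and did after rescaling (0.98, adjusted p = 0.0261) and with the replicate block (adjusted p = 0.00407).

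The remaining Hsd17b enzymes moved apart. Hsd17b11, which sits on lipid droplets, was at 258, 330.4 and 397 TPM in late LPS and 134, 162 and 187 TPM in late mock libraries, every LPS library being higher. It rose by 1.00 ± 0.12 (adjusted p = 1.99e-06), most at 6 h (349 and 397 against 158 and 134 TPM). Hsd17b12, a reductase of fatty acid elongation, was at 91.0, 107 and 143 against 109, 149 and 174 TPM. It fell by 0.38 ± 0.10 (adjusted p = 0.00404), but this call ended after rescaling, where the value turned to 0.03 above mock (adjusted p = 0.858).

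Calls were fewer at 1 and 2 h than from 4 h on, among the members as in the whole table, with no steady increase after 4 h. At 1 h, 3 of 35 members rose and 0 fell, against 3.27% and 0.794% of all rows, and 1 member was lower at an unadjusted p under 0.05 in limma. With the replicate block, in which the libraries are matched by number, 6 were called at 1 h (17.3% of all rows). At 2 h, 1 rose and 4 fell (background 6.39% and 8.04%), and 10 were called with the block (27.7% of all rows). At 4 h, 1 rose and 13 fell (8.74% and 29.2%). The counts were 4 and 10 at 6 h (11.2% and 30%), 4 and 13 at 9 h (10.1% and 30%) and 3 and 11 at 12 h (10% and 26.8%). Acsl1 was called at all 6 times. Of the 67 calls at single times, 32 were lost on leaving out 1 library of that time.

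For the early effect 2 members rose (Acsl1 and Acsl4) and 5 fell (Cpt1a, Cpt2, Echs1, Acadm and Etfb), against 8.39% and 9.72% of all rows. With the replicate block 4 rose and 9 fell (14.2% and 19.4% of all rows). All 5 early falls were lost on leaving out some single library, LPS replicate 2 of 1 h among them in each case (adjusted p from 0.0894 to 0.182 without it), and the number of early falls ran from 0 to 7 over such fits. The rise of Acsl4 was lost without mock replicate 1 of 2 h (adjusted p = 0.0508). The F test over all 6 times called 23 of 35 members, against 57.2% of all rows, and with the replicate block it called 31 (80.5% of all rows).

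In the mock arm, 0 of 35 members were called different between 12 h and 0 h, as were 0% of all rows. An unadjusted p under 0.05 in limma was found for 2 members and 70 of 3147 rows. With 2 libraries per group, this does not show that levels stayed the same. The libraries did not overlap for 3 members above 0 h and 3 below, against 200 and 518 of all 3147 rows. The replicate block also called 0 members. The median member difference was -0.02.

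**Figure D4:**
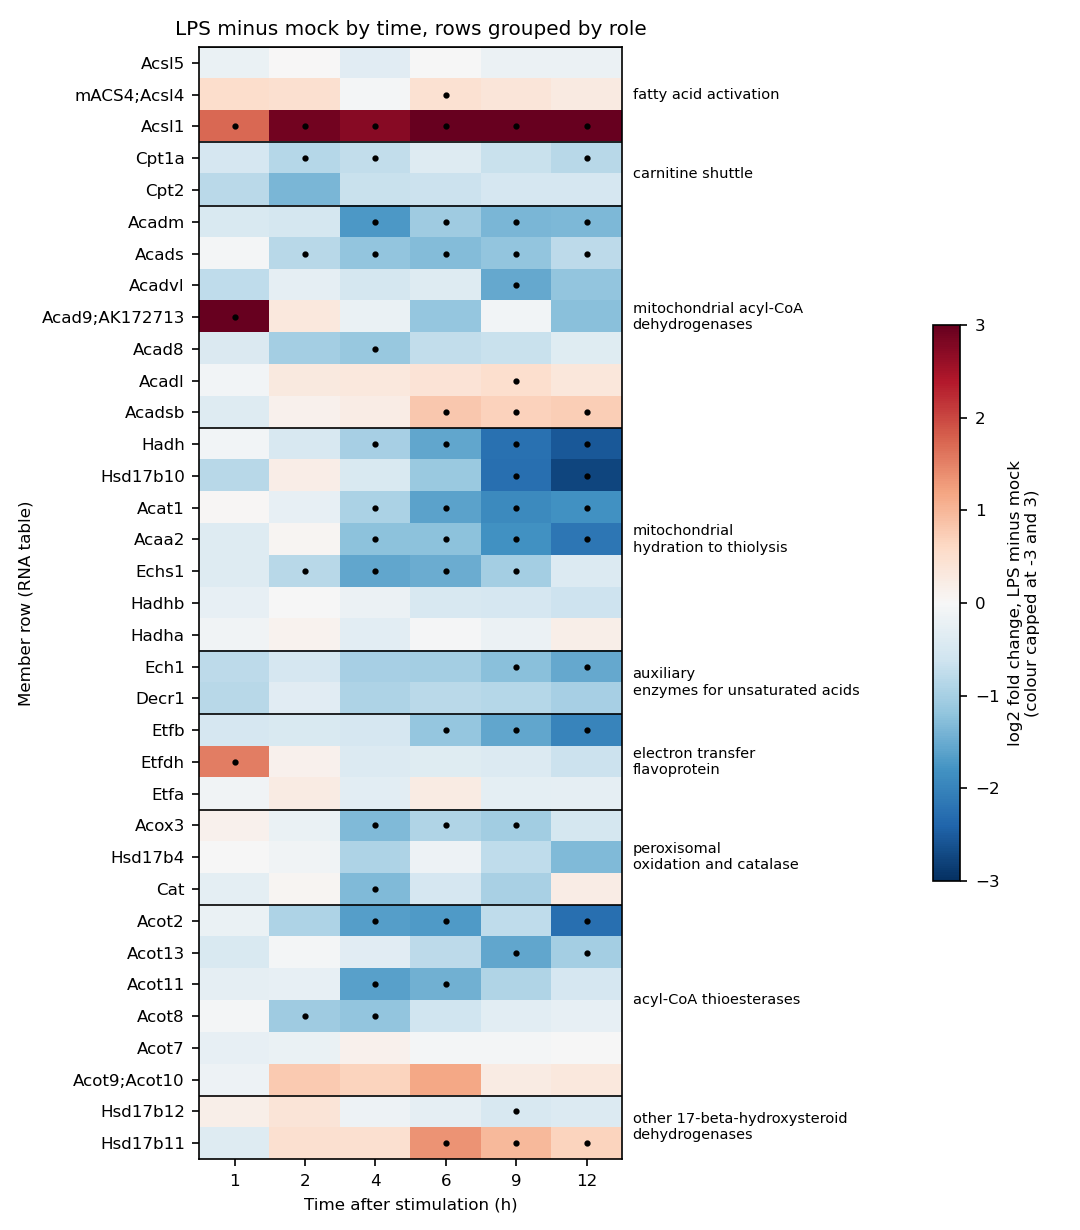
Log2 fold change of LPS over mock (colour, capped at -3 and 3) at each time in h (x axis) for the 35 rows (y axis), grouped by role, with a dot where the adjusted p is under 0.05. Acsl1 is high at all 6 times, Hadh and Etfb deepen from 4 h to 12 h, and Echs1 is lowest at 4 h.

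Late and early effects differed for 14 members, of which 3 moved up and 11 down with time (background 8.17% and 22.2%). After rescaling 9 of the members were called (23.8% of all rows). Among the falls the time courses took differing forms. Hadh went from -0.08 at 1 h through -0.48, -0.99, -1.56 and -2.24 to -2.54 at 12 h, and Etfb from -0.49 through -0.46, -0.50, -1.16 and -1.55 to -1.99. Echs1 instead was lowest at 4 h, at -1.56, and stood at -1.48, -1.02 and -0.40 at 6, 9 and 12 h. Acot8, Acot11, Acox3 and Cat were also lowest at 4 h (-1.19, -1.63, -1.32 and -1.33) and stood at -0.24, -0.49, -0.52 and 0.23 at 12 h. A test of the 12 h effect minus the 4 h effect, chosen after these values had been seen, called 4 members (background 3.78%), of which 1 moved up and 3 down (2.76% and 1.02%). Acsl1 was higher by 1.62 ± 0.34, and Hadh, Etfb and Acat1 were lower, by -1.54, -1.49 and -0.86. Echs1, Acot8, Acot11, Acox3 and Cat were not called in that test, so a recovery after 4 h is not established for any of them. Echs1 was called only with the replicate block (limma, adjusted p = 0.00614). With the compared groups alone the test called 0 members, 8 being under an unadjusted 0.05 in the full fit of limma, and without single libraries it called 1 to 3.

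In resting cells the footprints, fragments of mRNA covered by ribosomes, were set against RNA at 0 h over 2896 rows in both tables, with each library centred on its median. The fixed TPM total covers 3147 RNA rows but 6250 footprint rows, so raw TPM of the 2 kinds are on unlike scales. Of 33 members, 7 were called higher in footprints after centring and 2 lower, against 14.1% and 13.6% of all shared rows. The member median was a log2 ratio of 0.64, and that of all rows 0.11. Cat held 179 and 203 TPM in footprints and 175 and 63.7 TPM in RNA (log2 ratio after centring 1.70 ± 0.44, adjusted p = 0.0383). Hadha held 79.6 and 88.8 against 73.1 and 41.1 TPM (1.46 ± 0.30, adjusted p = 0.0219). Cpt1a, Acsl4, Acat1, Decr1 and Acot11 stood at 1.18, 1.11, 1.07, 1.02 and 1.24. For Cat and for Hadha the RNA libraries differed widely from each other. With the replicate block Hsd17b4 and Acadvl were called too (adjusted p = 0.00718 and 0.0426).

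Called lower in footprints after centring were Acsl5, at 22.5 and 27.5 against 125 and 76.3 TPM (-1.08 ± 0.28, adjusted p = 0.038), and the merged row Acad9;AK172713. The latter held 17.5 and 17.9 TPM in footprints and 549 and 347 TPM in RNA, a log2 ratio of -3.70 ± 0.27 (adjusted p = 0.00366) and the fourth lowest of the 2896 rows. Acsl1, at 39.4 and 40.3 against 44.7 and 44.4 TPM, missed the threshold (0.69 after centring, adjusted p = 0.0591). Without footprint replicate 1 or 2 the number of members called was 2 or 1, the row of Acad9 among them in both, and without RNA replicate 1 or 2 it was 25 or 20. Whether the footprint values were divided by length is not stated, so these ratios are less firm than the RNA comparisons.

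**Figure D5:**
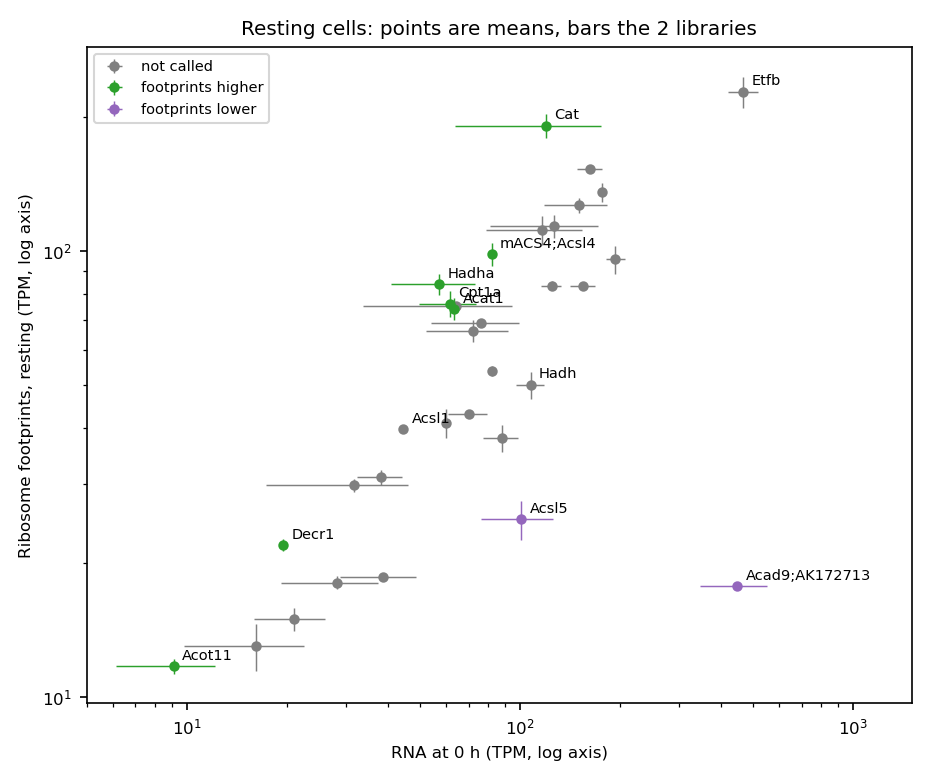
Footprint level (y axis, TPM, log axis) against RNA level at 0 h (x axis, TPM, log axis) for the 33 rows in both tables; points are means, bars span the libraries, and colour gives the call after centring. The row Acad9;AK172713 lies far below the rest, with 17.5 and 17.9 TPM in footprints.

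The footprint table held 11 member rows with no RNA row of the same name, though Acot9 is part of the merged RNA row Acot9;Acot10. Acaa1a, a peroxisomal thiolase, held 209 and 154 TPM. The peroxins were at 38.7 and 33.5 TPM (Pex19, a chaperone of peroxisomal membrane proteins), 18.7 and 14.4 (Pex5, the import receptor), 11.5 and 12.4 (Pex14, its docking partner) and 7.33 and 6.28 TPM (Pex6, which recycles the receptor). Acot9, Hsd17b7, Echdc1 and Acsl3 had means of 42.9, 22.5, 19.0 and 8.46 TPM. Apart from Acot9, these were not measured in an LPS arm.

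Neighbouring pathways were counted from lists written from general knowledge, with earlier results of these data known. For comparison, 15.5% of all rows rose late and 47.7% fell, with a median of -0.43. After rescaling, 26.2% of all rows rose and 25.9% fell. Of 13 genes of fatty acid and carnitine transport, 8 were in the RNA table, with 0 late rises and 3 falls, and a median of -0.46 (2 rises and 2 falls after rescaling). Crat, the carnitine acetyltransferase, fell by 1.83 ± 0.20, and Dbi, the acyl-CoA binding protein, by 0.81 ± 0.11. Other peroxisomal proteins numbered 10 of 26, with 1 rise, 7 falls and a median of -0.88 (1 and 6 after rescaling). Prdx5, a peroxide-reducing enzyme, rose by 1.33 ± 0.28, while Idh1, which makes NADPH, fell by 1.89 ± 0.11.

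Branched-chain amino acid and propionate breakdown shares Acadsb, Acad8, Acat1 and Hsd17b10 with the members. It had 11 of 19 further genes in the table, with 2 rises, 7 falls and a median of -1.13 (2 and 6 after rescaling). Here and for the lists that follow, the background is again 47.7% of all rows falling, or 25.9% after rescaling. The subunits of a complex diverged here too, as Pcca rose by 0.73 ± 0.26 and Pccb, its partner in propionyl-CoA carboxylase, fell by 2.26 ± 0.19. Bckdhb, a subunit of the branched-chain ketoacid dehydrogenase, rose by 2.05 ± 0.16, and Ivd, a dehydrogenase of leucine breakdown, fell by 1.65 ± 0.17. Fatty acid synthesis (7 of 18) had 0 rises and 5 falls with a median of -0.81 (0 and 2 after rescaling). Fasn, the fatty acid synthase, fell by 2.54 ± 0.27, and Mecr, of the mitochondrial pathway, fell by 1.14 ± 0.19. Lipid droplets and lipolysis (8 of 12) had 1 rise, 5 falls and a median of -0.78 (1 and 2 after rescaling). Lipe, the hormone-sensitive lipase, rose by 0.59 ± 0.13, and Soat1, which makes cholesterol esters, and Mgll, the monoacylglycerol lipase, fell by 1.30 ± 0.15 and 1.24 ± 0.23. Of 14 transcription regulators of the pathway, 0 were in the RNA table, which does not show that they were not expressed.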

How the data were processed

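The authors deposited RNA levels in TPM. The submitters' processing notes name Bowtie 0.12.7, RSEM 1.2.3 and the build mm9 for these samples, and Bowtie2 and TopHat2 for the footprints. The deposited footprint columns have the same fixed total as the RNA columns and were read as TPM. The 0 h columns stand under both arm names with identical values and were used once. Descriptions of the 4 h samples name hour 5, but titles and table say 4 h.

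A filter of 1 TPM or more in 2 or more libraries removed no row of the 3147. Levels were analysed as log2 of TPM plus 1, which understates the change of low rows, with limma 3.58.1 in R 4.3.3. The model fitted a mean to each of 13 groups, which leaves 13 residual degrees of freedom, and let the variance follow abundance. Calls are two-sided, at a Benjamini-Hochberg adjusted p under 0.05 over all rows. Errors of log2 fold changes are standard errors. Footprints and RNA at 0 h were compared in a fit of their own. The steps were tested on simulated data with errors independent between libraries, which leaves out the pairing by number given below.

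Replicate numbers come from the sample titles. Libraries with the same number deviated together at all 6 times (correlations 0.227 to 0.685 over all rows). The main fit had no replicate term and so left this pairing out. The numbers paired the libraries only in the replicate block and in the paired form of the ratios. The titles do not say what libraries of the same number share. Over the members alone the correlations between libraries of the same number ran from -0.123 (at 12 h) to 0.688. Blocked values are given for late calls that they change and for counts that they move by over 1.5 times, and otherwise only for a few members.

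The members, roles, lists and tests were chosen with earlier results of these data known. A few items are not reported here. The naming rule took the 6 largest late rises and falls without overlap, the largest at each time, the most abundant of each role, those whose late and early effects were called different with opposite sign, and 2 each way of other lists. The fits were repeated with quantile normalization, with median-ratio rescaling, with 0.1 or 5 TPM added, with a 10 TPM minimum, with a replicate block, with the compared groups alone and without each library in turn. The contrast of 12 h with 4 h and the partner ratios, with their paired form, were added after seeing the data. Promoters are from RefSeq on GRCm38.p6, a later build than that of the files, and no protein sequences were used here. Figures were drawn with matplotlib 3.10.9.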

Additional observations from a re-analysis of the deposited data

Results flagged for a closer look

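The late effect (6, 9 and 12 h) differed from the early effect (1 and 2 h) in a test of the difference itself for 14 members, and the late minus early differences are given here on the log2 scale. Acsl1 was higher by 1.53, Hsd17b11 by 0.95 and Acadsb by 0.88. Lower late effects were found for Hadh (-1.83), Acat1 (-1.67), Acaa2 (-1.57) and Etfb (-1.09), and these calls and the rises held after rescaling. The row Acad9;AK172713 had -2.64, which rests on high LPS libraries of 1 h and was close to the threshold after rescaling (adjusted p = 0.045); it was lost without LPS replicate 1 of 1 h, mock replicate 2 of 1 h or mock replicate 2 of 2 h (adjusted p = 0.065, 0.0505 and 0.0516). Differences of -1.72 for Hsd17b10, -1.30 for Etfdh, -0.79 for Acox3, -0.77 for Acadm, -0.66 for Hsd17b12 and -0.65 for Acads were not called after rescaling (adjusted p = 0.0539, 0.0571, 0.196, 0.107, 0.148 and 0.251). Acox3 was also lost without any of 12 single libraries (adjusted p from 0.0517 to 0.073), Acads without LPS replicate 1 of 2 h (adjusted p = 0.0555) and Etfdh without mock replicate 2 of 2 h (adjusted p = 0.0518).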

How the results depend on the processing

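With the replicate block the members called numbered 6 against 3 at 1 h and 10 against 5 at 2 h, and for the early effect 4 against 2 rose and 9 against 5 fell. Median-ratio rescaling gave 13 late falls against 20, 4 early rises, 3 early falls and 9 late minus early calls against 14. Quantile normalization gave 12 late falls, 9 late minus early calls, 7 calls at 4 h against 14 and 15 over the time course against 23. With the compared groups alone there were 0 calls at 1 h, 2 at 2 h, 8 at 9 h against 17, 1 early fall and 0 for 12 h minus 4 h. A pseudocount of 0.1 gave 1 call at 1 h. The cause was not tested. Among the named members, late signs turned for Acot7, Hsd17b12, Acot8 and Etfdh. Acot7 was at 0.36 after rescaling, and from -0.11 to 0.014 without single libraries (0.0077 without LPS replicate 1 of 12 h). Hsd17b12 was at 0.026 after rescaling. Acot8 was at 0.019 after rescaling and 0.037 under quantile normalization, and Etfdh at 0.043 under quantile normalization. Outside the named members, the value of Acad8 also turned under quantile normalization, as given above. Leaving out single libraries gave 1 to 3 calls at 1 h, 1 to 3 at 2 h, 8 to 15 at 4 h, 10 to 11 at 6 h, 11 to 18 at 9 h, 8 to 11 at 12 h, 19 to 26 over the time course, 11 to 15 late minus early, 0 to 7 early falls, 1 to 4 early rises, 17 to 22 late falls, 5 to 6 late rises, 1 to 25 for footprints, 1 to 3 for 12 h minus 4 h and 0 to 0 for mock at 12 h. Of the values of named members under these settings, 445 kept direction and side of the threshold, 27 fell below it, 3 passed it and 7 turned. TPM gives no depth, so no detection limit could be set.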
